A study of Mus musculus with 2 samples.

Results

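Pericyte-like cells are named here for markers of pericytes, the wall cells of capillaries, in a single-cell RNA sequencing experiment on mouse lung. They were chosen by measured values. A member cell had from 200 to 6000 genes, at most 10% of its unique molecular identifiers (UMIs) from mitochondrial genes, no *Epcam* or *Ptprc* UMI, fewer than 5 *Acta2* UMIs and no *Pln* UMI. It also had a UMI of at least 3 of 9 markers, which were *Higd1b*, *Cox4i2*, *Cspg4*, *Ndufa4l2*, *Vtn*, *Gja4*, *Adcy8*, *Art3* and *Agtr1a*. The rule found 1328 cells among the 23349 cells of both libraries.

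The study deleted *Hhip*, which encodes a secreted and membrane-bound inhibitor of hedgehog ligands, from *Gli1*-lineage cells of the newborn mouse lung. Both mice had the genotype *Gli1 creERT/+*:*Hhip flox/flox*. Tamoxifen (100 mg/kg a day over 3 days, starting at birth) went to the *Gli1 HHIPCKO* mouse and oil, on the same schedule, to its control, and both lungs were taken at postnatal day 14 (P14). Live stromal and epithelial cells were sorted without CD31 and CD45 positive cells and mixed at 3:1. The Cre recombinase was driven by *Gli1*, so that only cells of that lineage were open to deletion. The labels name a 3′ version 2 kit and Cell Ranger 3.1.0, whereas the series' design text names a 5′ version 2 kit and the header of the files CellRanger 6.1.0. The methods of the paper also name a 5′ version 2 kit and CellRanger 6.1.0. Why the labels differ is not settled here.

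Pericytes are mural cells that lie inside the capillary basement membrane, in contact with the endothelium. Endothelial platelet-derived growth factor recruits them through the receptor PDGFRB, and Notch signalling and angiopoietin 1 bind them to the vessel. In the lung they cover the alveolar capillary network, contribute collagen IV and laminin to its basement membrane and carry the receptors and channels that set capillary tone.

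The control library held 10999 cells with 43291709 UMIs and a median of 3531 UMIs per cell. The *Gli1 HHIPCKO* library held 12350 cells with 52338969 UMIs and a median of 3720. The filter on genes and mitochondrial UMIs left out 82 control cells and 235 *Gli1 HHIPCKO* cells. The libraries shared 193 barcodes, and 9 of the pericyte-like cells in the control library and 15 in the other carried such a barcode. No doublet caller was run. In place of one, values were computed again without the member cells that held a *Pdgfra*, *Pecam1*, *Cdh5* or *Sftpd* UMI, which were 102 cells (20.1%) in the control and 145 cells (17.7%) in the *Gli1 HHIPCKO* library.

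There was 1 mouse in each group, so no test was possible. Levels are given as CPM, the UMIs of a gene in every 1000000 UMIs of a class of cells. Each UMI stands for 1 molecule, and levels of different genes are compared on this scale without a correction for length. Intervals are exact 95% Poisson intervals for levels, exact Clopper-Pearson intervals for shares and conditional binomial intervals for log2 ratios of *Gli1 HHIPCKO* over control. They cover counting error only, not the difference between mice.

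The level of *Hhip* itself is given first, and whether it reflects deletion in these cells was not tested. Pericyte-like cells held 136 *Hhip* UMIs in the control, a level of 111 CPM (92.8 to 131). In the *Gli1 HHIPCKO* library they held 54 UMIs, or 27.8 CPM (20.9 to 36.3), and the log2 ratio was -1.99 (-2.48 to -1.53). The *Hhip* UMIs lay in few cells, 43 in the control and 40 in the *Gli1 HHIPCKO* library. In the control, the 5% of cells with the most *Hhip* held 87.5% of its UMIs. The share of pericyte-like cells with a *Hhip* UMI was 8.46% in the control and 4.88% in the *Gli1 HHIPCKO* library. Among *Epcam* cells, defined by at least 1 *Epcam* UMI and no *Ptprc* UMI, these shares were 9.24% and 7.13% at a median depth of 5348 and 6160 UMIs, against 1986 and 1976 UMIs in pericyte-like cells. With each cell thinned to 1000 UMIs, the shares were 4.44% and 1.23% in pericyte-like and 2.97% and 1.39% in *Epcam* cells. At 2000 UMIs per cell they were 9.56% (6.22 to 13.9) and 5.75% (3.68 to 8.50) in pericyte-like and 5.11% (4.34 to 5.98) and 3.20% (2.61 to 3.87) in *Epcam* cells. The control intervals overlapped at 1000 UMIs and did not at 2000, and the part of free RNA in these *Hhip* UMIs was not tested. Stromal cells with a *Pdgfra* UMI and none of the 9 markers (*Pdgfra* cells below) held *Hhip* at 523 CPM in the control and 128 CPM in the *Gli1 HHIPCKO* library.

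*Gli1*, which drives the Cre, had 0 UMIs in the 508 control pericyte-like cells and 9 UMIs in the 820 *Gli1 HHIPCKO* cells. With the control count of 0 replaced by a floor of 3 counts over the class, its log2 ratio was 0.92. That value leaves out the counting error of the 9 UMIs and is not a lower limit. The hedgehog receptor *Ptch1*, itself a target of the pathway, stood at 78.1 and 89.0 CPM in pericyte-like cells, for a log2 ratio of 0.19 (-0.18 to 0.56). The co-receptor *Gas1* stood at 104 and 97.8 CPM. A difference in *Ptch1* or *Gas1* was not detectable at this depth. Of the 11 hedgehog genes listed, 2 passed the filter for comparison that is given below.

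The mice differed in sex. In pericyte-like cells *Xist*, the RNA that silences an X chromosome in females, had 0 UMIs in the control and 650 UMIs, or 335 CPM, in the *Gli1 HHIPCKO* library. The Y-linked genes *Ddx3y* and *Eif2s3y* had 72 and 80 UMIs in the control and 0 UMIs in the *Gli1 HHIPCKO* library. *Kdm5d* and *Uty* had 27 and 25 UMIs in the control and 0 UMIs in the other. Effects of sex, of tamoxifen and of the deletion cannot be told apart in these libraries.

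Pericyte-like cells made up 508 of 10917 passing cells in the control, or 4.65% (4.27 to 5.07). In the *Gli1 HHIPCKO* library they made up 820 of 12115, or 6.77% (6.33 to 7.23). The log2 ratio of the shares was 0.54 (0.38 to 0.70). Among passing cells with no *Epcam* and no *Ptprc* UMI, the shares were 6.55% and 9.34%, with a log2 ratio of 0.51 (0.35 to 0.68). Cells were sorted and mixed before loading, so a share describes the sorted mixture and not the lung. Pericyte-like cells were shallower than other passing cells, whose medians were 3618 and 3952 UMIs. The median number of genes was 1222 in control and 1282 in *Gli1 HHIPCKO* pericyte-like cells, and the median mitochondrial share was 0.550% and 0.683% of UMIs.

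At the edge of the rule, cells with 2 of the 9 markers numbered 100 in the control and 104 in the *Gli1 HHIPCKO* library, and cells with 3 markers numbered 46 and 59. A *Pdgfrb* UMI was held by 60.0% and 51.9% of the cells just outside and by 80.4% and 88.1% of those just inside. A *Postn* UMI was held by 48.0% and 57.7% outside and by 95.7% and 93.2% inside. The fibroblast receptor gene *Pdgfra* ran the other way, with 42.0% and 39.4% outside and 21.7% and 15.3% inside. At the edge of the *Acta2* gate, 11 and 28 member cells held 4 UMIs, and 8 and 16 cells with 3 or more markers held 5 UMIs and were left out. In all, 104 control and 170 *Gli1 HHIPCKO* cells met the marker rule outside the *Acta2* and *Pln* gate.

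**Figure D1:**
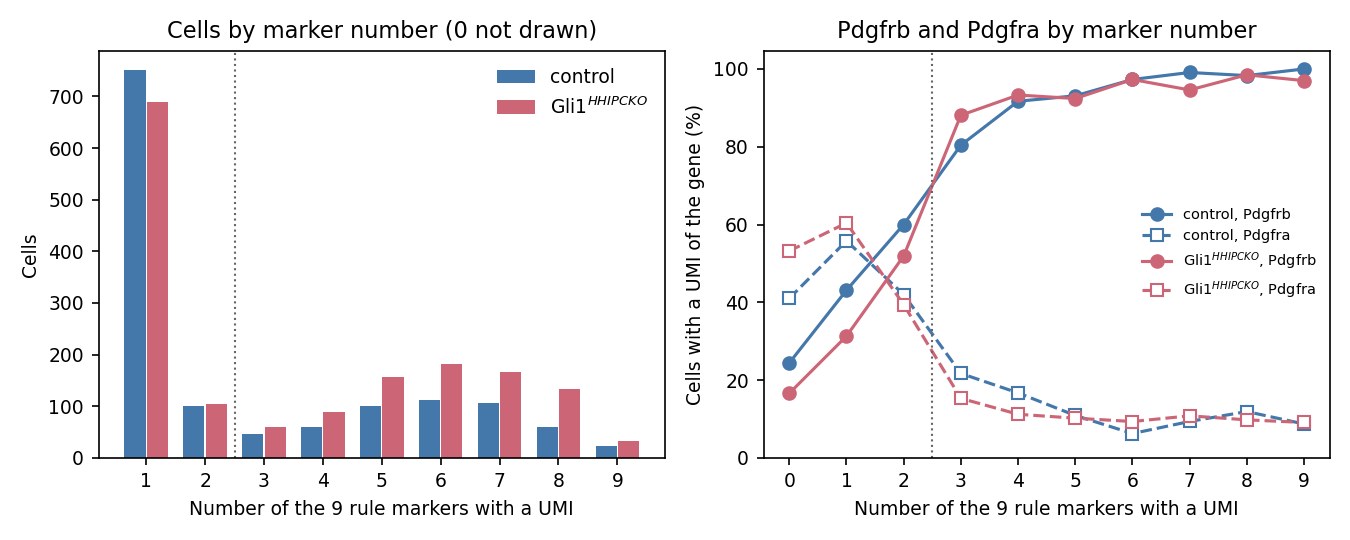
Cells by the number of the 9 rule markers with a UMI (left, number of cells) and the percent of those cells with a *Pdgfrb* or *Pdgfra* UMI (right), for each library. The dotted line is the threshold of 3 markers, and the share with *Pdgfrb* in the control goes from 60.0% at 2 markers to 80.4% at 3.

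The genes of the rule are given as a description. The most abundant was *Cox4i2*, a subunit of cytochrome c oxidase that is used in oxygen sensing, at 3056 and 3097 CPM. *Ndufa4l2*, a paralogue of an oxidase subunit, stood at 1285 and 1279 CPM. *Higd1b*, of the hypoxia-inducible domain family, stood at 774 and 770.4 CPM. In *Pdgfra* cells all 9 markers were at 0 because the class was defined that way. *Gja4*, the gap junction protein connexin 37, stood at 355 CPM in the control and 593 CPM in the *Gli1 HHIPCKO* library, for a log2 ratio of 0.74 (0.58 to 0.90). Its share of member cells was 47.2% and 62.3%. Thinned to 1000 UMIs per cell, which left out 58 control and 86 *Gli1 HHIPCKO* cells of lower depth, it was 29.6% and 44.6%, and in thinned *Epcam* cells it was 0.134% and 0.678%. *Cspg4*, the NG2 proteoglycan, stood at 662 and 531 CPM. The 9 markers summed to 7599 and 7850 CPM in pericyte-like cells, and to 105 and 141 CPM in the other passing cells.

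Markers of pericytes that the rule did not use were looked at next. Of 18 such genes, 15 passed the filter for comparison, with 7 above and 8 below 0, 1 past 2-fold higher (0.691% over all genes) and a median log2 ratio of -0.05. The list summed to 18016 CPM in the control and 21315 CPM in the *Gli1 HHIPCKO* library, against 949 and 1098 CPM in other passing cells. Marker-positive cells with 8 or more *Acta2* UMIs and no *Pln* UMI, outside the gate, had median depths of 4242 and 3766 UMIs. Of these cells, 81.0% and 88.9% held *Pdgfrb*, 84.8% and 92.3% *Postn* and 89.9% and 97.4% *Gucy1a1*. The presence of these genes thus did not set members apart from those cells. *Pdgfrb*, the receptor that recruits pericytes, stood at 1922 and 1959 CPM, for a log2 ratio of 0.03 (-0.05 to 0.10). It was found in 94.9% of the cells of each library, in 82.2% and 83.0% after thinning, and in 2.64% and 2.31% of thinned *Epcam* cells. The level of *Pdgfrb* in pericyte-like cells was thus alike in both libraries, while in *Pdgfra* cells it was 227 CPM in the control and 102 CPM in the *Gli1 HHIPCKO* library. *Postn*, the matricellular protein periostin and the most abundant gene of the list, stood at 5338 and 6659 CPM, for a log2 ratio of 0.32 (0.28 to 0.36). *Trpc6*, a calcium-permeable channel, stood at 717 and 732 CPM. It was among the genes set furthest apart from other stromal cells, at 86.0 times their level in the control and 58.8 times in the *Gli1 HHIPCKO* library.

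*Notch3*, the receptor through which endothelial ligands act on mural cells, stood at 911 CPM in the control and 662 CPM in the *Gli1 HHIPCKO* library, for a log2 ratio of -0.46 (-0.58 to -0.34). The adhesion molecule *Mcam* stood at 782 and 568 CPM, also with a log2 ratio of -0.46 (-0.59 to -0.34). Thinned to 1000 UMIs, *Notch3* was found in 63.6% and 52.3% of pericyte-like cells and *Mcam* in 56.7% and 44.1%. Both genes were lower in the *Gli1 HHIPCKO* library, short of 2-fold. The Notch effector *Heyl* stood at 232 and 223 CPM, and *Nrarp*, a feedback target of Notch, at 104 and 82.9 CPM. Of 16 genes for PDGF and Notch signalling, 10 passed the filter, none was past 2-fold, and their median log2 ratio was -0.03. *Rgs5*, *Kcnj8* and *Abcc9*, which mark pericytes of other organs, were low at 83.8 and 63.3, 65.9 and 60.7, and 43.1 and 28.8 CPM.

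Beyond these, the 25 genes set furthest above other stromal cells were the rule markers other than *Cspg4* and genes outside the rule. *Pdzd2*, a protein with PDZ domains, stood at 3058 and 2725 CPM, or 80.4 and 54.3 times other stromal cells. *Clstn2*, a calsyntenin, stood at 448 and 459 CPM, or 102 and 80.5 times. *Pcdh18*, a protocadherin, stood at 1054 and 758 CPM, for a log2 ratio of -0.48 (-0.59 to -0.37). *Cdh2*, the cadherin of pericyte contacts with endothelium, stood at 325 and 285 CPM, or 62.6 and 40.1 times. *Lipg*, endothelial lipase, stood at 575 and 738 CPM. *Fam162b* stood at 753 and 882 CPM. *Gprc6a*, a receptor for basic amino acids, stood at 65.9 and 125 CPM, for a log2 ratio of 0.92 (0.56 to 1.31). The others of the 25 outside the rule, *Postn*, *Trpc6*, *Gucy1b1*, *Kcnq5*, *Rflna*, *Adamtsl3*, *Chst5*, *Plxdc1*, *Tnfrsf21* and *Cstdc2*, had log2 ratios from -0.36 (*Rflna*) to 0.41 (*Gucy1b1*).

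Genes were compared between libraries when found in at least 10% of member cells of either library with at least 50 UMIs over both, which 4498 genes met, or 4488 without the genes of the rule and its gates. A gene could pass through a single library, such as the one where it was higher. Counts past 2-fold and ranks of ratios include such genes, in the lists and over all genes. Not every such gene is marked below. A log2 ratio of at least 1 was found for 31 genes (0.691%) and of at most -1 for 14 genes (0.312%). With the median log2 ratio set to 0 in place of scaling to all UMIs, 24 genes were higher and 18 were lower. The median log2 ratio of all 4488 genes was 0.04, with 56.5% of them above 0 and 93.5% within 1.5-fold. These values over all genes are the ones to hold the lists below against. Among the 728 genes at least 2 times as high in pericyte-like cells as in all other passing cells in both libraries, 9 (1.24%) were higher and 4 (0.549%) lower past 2-fold, with a median of 0.07. The 80 ribosomal protein genes had a median of 0.05, with 1 of them past 2-fold. Of the genes past 2-fold, 1 higher and 3 lower lie on the X or Y chromosome. Among those followed over the alternatives, 12 of 25 higher and 8 of 14 lower genes were within 2-fold in at least 1 alternative.

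**Figure D2:**
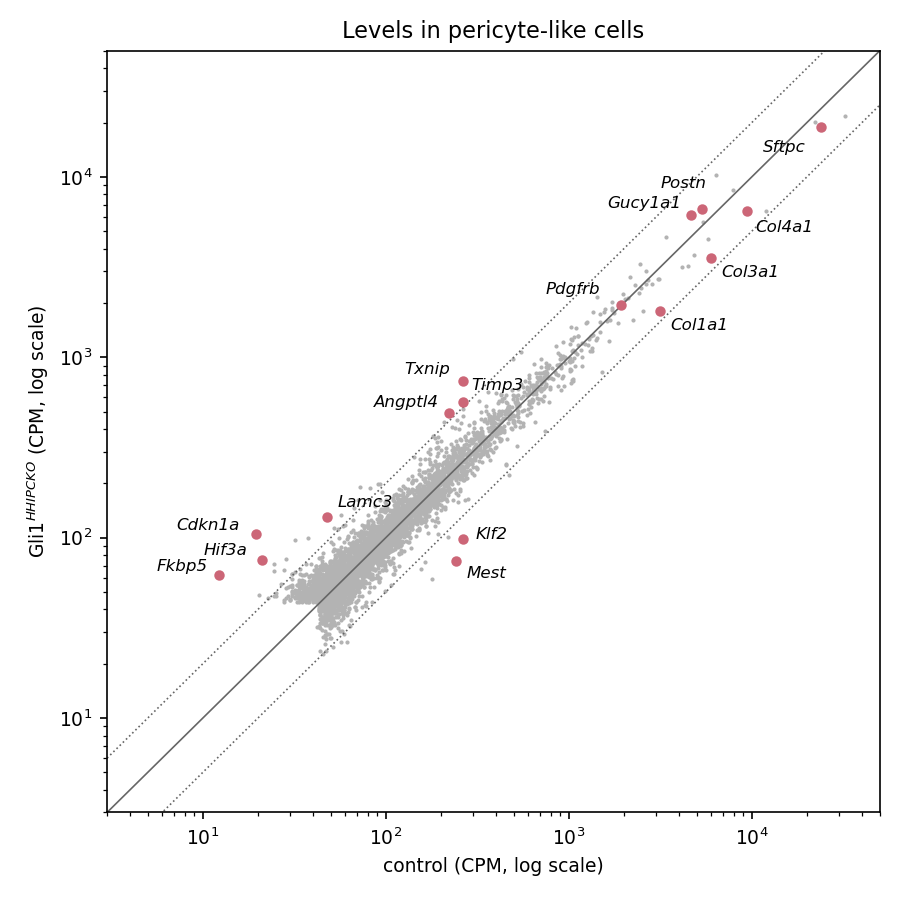
Levels of the compared genes in pericyte-like cells, control on the horizontal and *Gli1 HHIPCKO* on the vertical axis (CPM, log scales). The solid line marks equal levels and the dotted lines 2-fold, and *Txnip* at 263 and 741 CPM lies above the upper one.

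Under the main rule, the highest ratio of an autosomal gene that passed the filter was that of *Cdkn1a* (ENSMUSG00000023067, chr17:29090976-29100727 on GRCm38), which encodes the cyclin-dependent kinase inhibitor p21. Its level was 19.5 CPM (12.5 to 29.0) in the control and 105 CPM (91.1 to 120.4) in the *Gli1 HHIPCKO* library, for a log2 ratio of 2.43. A *Cdkn1a* UMI was held by 3.35% and 15.2% of member cells, or by 1.56% and 7.90% thinned to 1000 UMIs. The gene thus passed the filter through the *Gli1 HHIPCKO* library alone, where it was higher. In *Epcam* cells, where the gene was also higher in the *Gli1 HHIPCKO* library, the shares were 28.5% and 59.3% as sequenced and 8.02% and 17.5% thinned. No class examined lacked *Cdkn1a*, so that a background share could not be read for it. The ratio differed between alternatives and was 1.58 with 2 of 9 markers required, 1.39 without the *Acta2* and *Pln* gate, and 5.06 after subtraction of a background estimated from markers of alveolar type 2 (AT2) cells. In the first 2 of these it was below the ratio of *Fkbp5* (below), which was at least 2.30 in each alternative. The AT2 marker UMIs behind the subtracted background lay mostly in few member cells, as given below. In *Pdgfra* cells *Cdkn1a* stood at 101 and 228 CPM.

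Of 20 genes for CDK inhibitors and p53 targets, 9 passed the filter, 2 were past 2-fold higher (0.691% over all genes) and 8 had a log2 ratio above 0 (56.5% over all genes), with a median of 0.31. *Trp53inp1*, a p53 target, was the other past 2-fold, at 26.8 and 55.1 CPM, and within 2-fold at 0.93 with 2 of 9 markers required. Like *Cdkn1a*, it passed the filter through the *Gli1 HHIPCKO* library alone, where it was higher. The most abundant of the list was *Cdkn1c*, which encodes p57, at 1262 CPM in the control and 1567 CPM in the *Gli1 HHIPCKO* library, for a log2 ratio of 0.31 (0.22 to 0.40). *Cdkn1c* stood at 268 and 269 CPM in *Pdgfra* cells. *Cdkn1b*, which encodes p27, stood at 74.8 and 104 CPM in pericyte-like cells. *Cdkn2a*, the p16 and p19 locus, had 0 UMIs in pericyte-like cells of both libraries. Of 20 cell cycle genes 2 passed the filter, *Tubb5* and *Hmgb2*, and the list summed to 433 and 341 CPM. The proliferation marker *Mki67* had 22 and 17 UMIs.

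Among glucocorticoid-responsive genes and metallothioneins, 10 of 13 genes passed the filter, all 10 had a log2 ratio above 0, 2 were past 2-fold, and the median was 0.82, against 0.691% past 2-fold higher, 56.5% above 0 and a median of 0.04 over all genes. With 2 of 9 markers required, the median was 0.51. *Fkbp5*, a co-chaperone of the glucocorticoid receptor and one of its targets, stood at 12.2 CPM in the control and 62.3 CPM in the *Gli1 HHIPCKO* library, for a log2 ratio of 2.35 (1.57 to 3.23). It was found in 2.95% and 13.0% of pericyte-like cells, in 1.11% and 6.40% thinned, and in 0.434% and 2.06% of thinned *Epcam* cells. *Fkbp5* thus passed the filter through the *Gli1 HHIPCKO* library alone, where it was higher. *Glul*, glutamine synthetase, stood at 207 and 436 CPM, for a log2 ratio of 1.07 (0.87 to 1.28). The NF-kappa-B inhibitor *Nfkbia* stood at 231 and 409 CPM, and the metallothionein *Mt1* at 95.2 and 179.6 CPM. The ratio of *Mt1* was 0.92, and 0.31 without member cells that held a *Pdgfra*, *Pecam1*, *Cdh5* or *Sftpd* UMI. The most abundant gene of the list, *Tsc22d3* or GILZ, lies on the X chromosome and stood at 455 and 566 CPM. These ratios were not limited to pericyte-like cells, and in *Pdgfra* cells *Fkbp5* had a log2 ratio of 2.10 and *Glul* of 1.09.

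All 7 of the 16 clock genes that passed the filter had a log2 ratio above 0, against 56.5% of all genes, with a median of 0.57 and none past 2-fold. Thinned to 1000 UMIs, the median was 0.30 and *Clock* was at -0.03. The repressor *Nr1d2* stood at 45.5 and 81.8 CPM in pericyte-like cells, for a log2 ratio of 0.85 (0.40 to 1.31). The output factor *Tef* stood at 29.3 and 53.0 CPM, and *Per3* at 52.1 and 86.5 CPM. *Tef* passed the filter through the *Gli1 HHIPCKO* library alone, where it was higher, and counts among the 7. The time of day at which each lung was taken is not in the labels.

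Some of the genes past 2-fold belonged to none of the lists. *Txnip*, the thioredoxin-interacting protein that limits glucose uptake, stood at 263 CPM in the control and 741 CPM in the *Gli1 HHIPCKO* library, 2.82-fold higher, with a log2 interval of 1.32 to 1.67. It was found in 39.4% and 71.2% of pericyte-like cells, or 23.6% and 51.6% thinned, and in 20.5% and 31.2% of thinned *Epcam* cells. *Arrdc2*, an arrestin-domain relative of *Txnip*, stood at 31.7 and 96.7 CPM, for a log2 ratio of 1.61 (1.11 to 2.15). *Hif3a*, a hypoxia-inducible factor subunit, stood at 21.1 and 75.6 CPM, for a log2 ratio of 1.84. Its UMIs lay in 24 of 508 control and 132 of 820 *Gli1 HHIPCKO* member cells. *Arrdc2* and *Hif3a* passed the filter through the *Gli1 HHIPCKO* library alone, where each was higher. In *Pdgfra* cells the log2 ratios were 1.24 for *Txnip*, 0.76 for *Arrdc2* and 1.70 for *Hif3a*. *Cdo1*, cysteine dioxygenase, stood at 70.8 and 162 CPM in pericyte-like cells, and was within 2-fold, at 0.97, as a mean over cells. Of 16 hypoxia response genes 7 passed the filter, 1 had a log2 ratio above 0 (56.5% over all genes), none was past 2-fold, and the median was -0.11. *Hif3a*, past 2-fold, was not on this list, and the lists were chosen with earlier results known. *Epas1*, which encodes HIF2A, was the most abundant gene of the list at 565 and 434 CPM, for a log2 ratio of -0.38 (-0.53 to -0.23). Its *Pdgfra* cell level was 17.7 and 30.0 CPM. Of the mitochondrial paralogues outside the rule, *Cox4i1* stood at 593 and 626 CPM and *Higd1a* at 164 and 161 CPM. *Ndufa4* was lower, at 139.9 and 111 CPM, with a log2 ratio of -0.33, or -0.88 without member cells that held a *Pdgfra*, *Pecam1*, *Cdh5* or *Sftpd* UMI.

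Angiogenic factors are signals by which pericytes act on endothelium. Of 18 genes 6 passed the filter, 2 were past 2-fold higher (0.691% over all genes) and 4 had a ratio above 0 (56.5% over all genes), with a median of 0.35, or 0.11 thinned to 1000 UMIs. *Angpt2* (ENSMUSG00000031465, chr8:18690263-18741562), the angiopoietin that loosens vessels, stood at 28.5 CPM in the control and 76.2 CPM in the *Gli1 HHIPCKO* library, for a log2 ratio of 1.42 (0.88 to 2.00), or 0.94 without the *Acta2* and *Pln* gate. Its UMIs lay in 31 of 508 control cells and 121 of 820 *Gli1 HHIPCKO* cells, in 3.33% and 7.77% of thinned cells, and in 0.368% and 0.493% of thinned *Epcam* cells. *Angpt2* thus passed the filter through the *Gli1 HHIPCKO* library alone, where it was higher, and counts among the 2 past 2-fold. In *Pdgfra* cells *Angpt2* ran the other way, at 40.3 and 25.9 CPM. *Angptl4*, an inhibitor of lipoprotein lipase that acts on vessel permeability, stood at 220.4 and 491 CPM, for a log2 ratio of 1.16 (0.96 to 1.36). The stabilizing ligand *Angpt1* was more abundant than either, at 563 and 684 CPM, for a log2 ratio of 0.28 (0.15 to 0.42). The growth factor *Hgf* stood at 92.7 and 124 CPM, and *Mdk*, midkine, at 273 and 215 CPM. *Vegfa* had 44 and 98 UMIs and did not pass the filter.

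Genes for cyclic GMP signalling and potassium channels act on vascular tone. *Gucy1a1* and *Gucy1b1* encode the subunits of soluble guanylate cyclase, the receptor of nitric oxide. *Gucy1a1* stood at 4631 and 6173 CPM, for a log2 ratio of 0.41 (0.37 to 0.46). *Gucy1b1* stood at 2453 and 3270 CPM, for a log2 ratio of 0.41 (0.35 to 0.48). Both subunits were thus higher by a like ratio, short of 2-fold, and in *Pdgfra* cells their log2 ratios were -0.68 and -0.46. *Prkg1*, the kinase that cyclic GMP activates, stood at 175 and 312 CPM, for a log2 ratio of 0.83 (0.61 to 1.07), with a UMI in 31.7% and 48.0% of cells as sequenced and in 16.7% and 30.2% thinned, against 0.301% and 1.26% of thinned *Epcam* cells. *Pde5a*, which breaks cyclic GMP down, stood at 2638 and 2556 CPM and did not share this difference. The potassium channel *Kcnk3*, or TASK-1, stood at 731 and 780.2 CPM. Of 15 genes in this list 10 passed the filter, none past 2-fold, with a median of 0.10, and *Kcna5* was at 0 in both libraries.

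Of 15 receptors for vasoactive ligands 4 passed the filter, none was past 2-fold and their median was 0.36. The thrombin receptor *F2r* stood at 425 CPM in the control and 621 CPM in the *Gli1 HHIPCKO* library, for a log2 ratio of 0.55 (0.40 to 0.70). The sphingosine 1-phosphate receptor *S1pr3* stood at 305 and 434 CPM, and the endothelin receptor *Ednra* at 418 and 487 CPM. The UDP-glucose receptor *P2ry14* was lower, at 211 and 184 CPM. The angiotensin receptor *Agtr1a*, a gene of the rule, stood at 343 and 432 CPM. Of 15 contractile genes 13 passed, none past 2-fold, with 5 above and 8 below 0 and a median of -0.13. The myosin light chain kinase *Mylk*, at a log2 ratio of 0.27, was among those above 0. The myosin light chain *Myl9* stood at 1023 and 716 CPM, for a log2 ratio of -0.52 (-0.63 to -0.40), and the actin cross-linkers *Flna*, on the X chromosome, and *Actn1* at 1047 and 749 CPM and at 165 and 116 CPM. The smooth muscle myosin *Myh11* was low, at 200.1 and 233 CPM. *Acta2*, bounded by the rule, stood at 196 and 228 CPM.

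**Figure D3:**
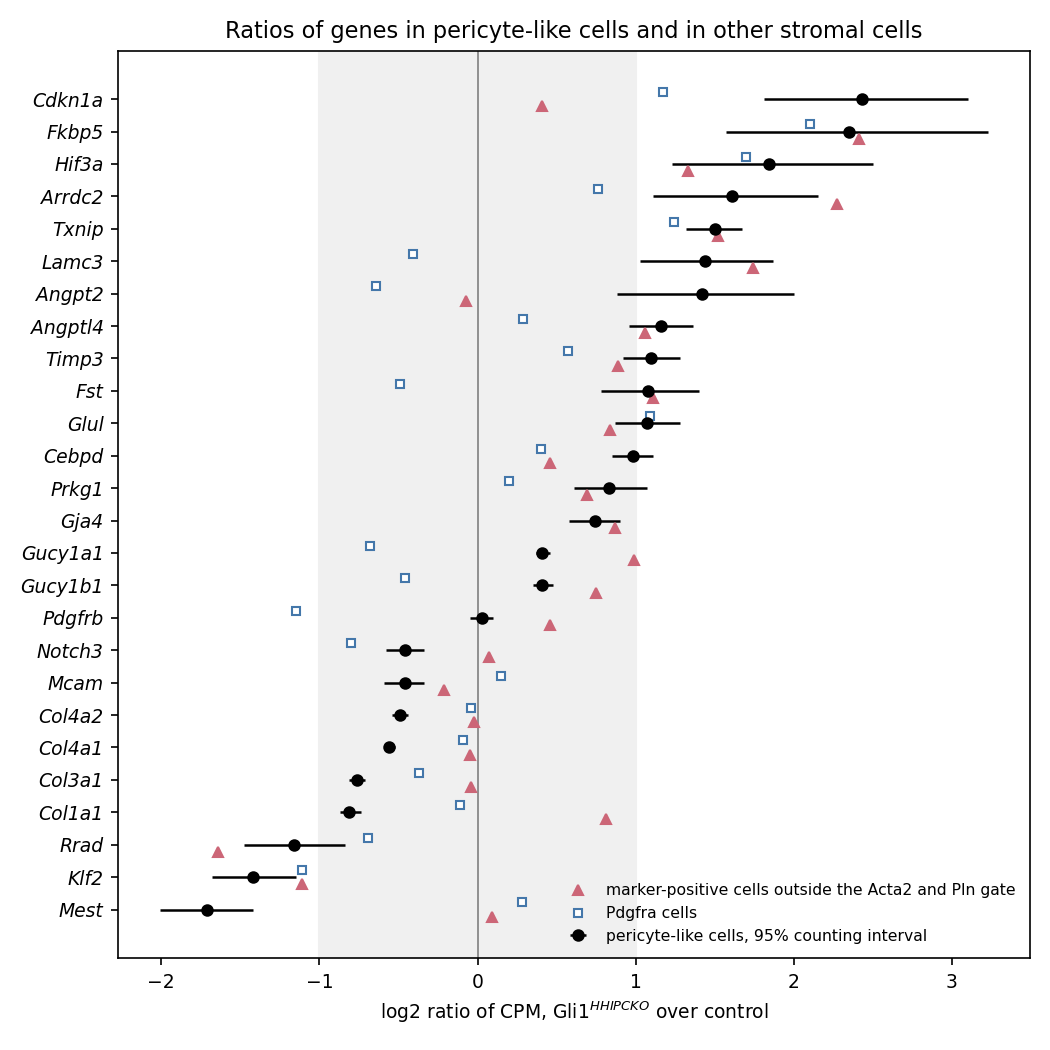
Log2 ratios of CPM, *Gli1 HHIPCKO* over control, for genes in pericyte-like cells with their 95% counting intervals, and in *Pdgfra* cells and marker-positive cells outside the *Acta2* and *Pln* gate. The grey band is within 2-fold, and *Lamc3* lies at 1.44 in pericyte-like cells and at -0.41 in *Pdgfra* cells.

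Basement membrane genes summed to 25373 CPM over 17 genes in the control and 21018 CPM in the *Gli1 HHIPCKO* library. Of these, 13 passed the filter, 1 was past 2-fold higher (0.691% over all genes), 8 had a ratio below 0, and the median was -0.08. The collagen IV chain *Col4a1* stood at 9466 and 6428 CPM, for a log2 ratio of -0.56 (-0.59 to -0.52). Its partner chain *Col4a2* stood at 4487 and 3195 CPM, for a log2 ratio of -0.49 (-0.54 to -0.44). Both chains were lower in the *Gli1 HHIPCKO* library by a like ratio, while in *Pdgfra* cells they stood at -0.09 and -0.04. The difference did not sit in a few cells, since the 5% of cells with the most *Col4a1* UMIs held 16.5% and 15.6% of them. The laminin gamma 3 chain *Lamc3* (ENSMUSG00000026840, chr2:31887291-31946539) stood at 48.0 CPM in the control and 130.2 CPM in the *Gli1 HHIPCKO* library, for a log2 ratio of 1.44 (1.03 to 1.87). *Lamc3* UMIs were in 11.0% and 22.4% of pericyte-like cells, in 5.56% and 12.1% thinned, and in 0.167% and 0.277% of thinned *Epcam* cells. *Agrn*, agrin, stood at 233 and 163 CPM and *Lamb1* at 1085 and 894 CPM, both lower. The nidogen *Nid1* at 1015 and 967 CPM and *Sparc* at 5442 and 5601 CPM were close.

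*Col4a1* and *Col4a2* lie head to head on chromosome 8, on the minus and the plus strand, and were both lower here, so their promoters are shown from RefSeq on GRCm38.p6. The windows are chr8:11312777-11313076 on the minus strand for *Col4a1* and chr8:11312555-11312854 on the plus strand for *Col4a2*, each of 300 bases, and 78 bases are shared. Capitals mark the CCAAT box (CCAAT or its reverse ATTGG) and the GC box (GGGCGG or its reverse CCGCCC). The *Col4a1* window holds 1 CCAAT and 1 GC box, and the *Col4a2* window 1 CCAAT and 3 GC boxes. The GC box of *Col4a1* lies in the shared bases and is the same site as 1 of the 3 of *Col4a2*. On either strand, CCAAT is in 37.4% and the GC box in 35.7% of 32851 promoters of this length, and a match is a description of letters only.
*Col4a1*: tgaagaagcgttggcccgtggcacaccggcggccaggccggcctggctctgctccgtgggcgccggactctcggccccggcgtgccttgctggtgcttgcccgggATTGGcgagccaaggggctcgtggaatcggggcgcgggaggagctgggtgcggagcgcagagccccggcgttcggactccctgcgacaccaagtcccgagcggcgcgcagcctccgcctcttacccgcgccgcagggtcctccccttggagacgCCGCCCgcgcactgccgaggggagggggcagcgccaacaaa
*Col4a2*: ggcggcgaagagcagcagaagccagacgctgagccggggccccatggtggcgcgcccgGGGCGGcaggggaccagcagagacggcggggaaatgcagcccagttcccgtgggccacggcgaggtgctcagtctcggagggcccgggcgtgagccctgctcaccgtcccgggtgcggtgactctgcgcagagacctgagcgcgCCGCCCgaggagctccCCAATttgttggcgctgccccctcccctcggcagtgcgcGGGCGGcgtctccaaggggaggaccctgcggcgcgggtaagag

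Of 20 interstitial matrix genes 18 passed the filter, 1 was past 2-fold higher (0.691% over all genes), 10 had a ratio above 0 and the median was 0.05, with -0.19 when 2 of 9 markers were required and -0.20 without member cells that held a *Pdgfra*, *Pecam1*, *Cdh5* or *Sftpd* UMI. *Timp3*, an inhibitor of metalloproteinases bound to matrix, was the gene past 2-fold, at 263 CPM in the control and 561 CPM in the *Gli1 HHIPCKO* library, for a log2 ratio of 1.10 (0.92 to 1.28), or 0.84 with 2 of 9 markers required. The fibrillar collagens *Col1a1* and *Col3a1* were lower in CPM in the *Gli1 HHIPCKO* library. *Col1a1* stood at 3161 and 1806 CPM, for a log2 ratio of -0.81 (-0.87 to -0.74), or -0.29 without the *Acta2* and *Pln* gate, and was found in 63.2% and 63.3% of cells, or 48.2% and 48.9% thinned. *Col3a1* stood at 5979 and 3534 CPM, for a log2 ratio of -0.76 (-0.81 to -0.71), or -0.37 without the cells above the 95th percentile of UMIs, and was found in 89.4% and 84.4% of cells, or 78.0% and 69.8% thinned. These UMIs lay in few cells, as the 5% of cells with the most *Col1a1* held 77.2% and 63.7% of its UMIs and those with the most *Col3a1* 63.0% and 54.1%. Elastin, *Eln*, stood at 4149 and 3171 CPM, with 71.4% and 66.2% in such cells. Its log2 ratio of -0.39 ran from -0.88 to -0.05 over the alternatives, and the share of cells with it ran the other way, at 45.3% and 49.9%, or 33.8% and 36.5% thinned. *Mfge8*, a milk fat globule protein that binds integrins, stood at 1715 and 1825 CPM, and *Bgn*, biglycan, on the X chromosome, at 1571 and 1860 CPM.

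Among growth factor pathways, 6 of 13 IGF genes passed the filter, with 2 past 2-fold higher (0.691% over all genes), 3 above and 3 below 0, and a median of 0.05, or -0.19 with 2 and -0.20 with 4 of 9 markers required. *Igf1* stood at 37.4 CPM in the control and 99.8 CPM in the *Gli1 HHIPCKO* library, for a log2 ratio of 1.42 (0.95 to 1.91). In all other passing cells it stood at 88.9 and 309.8 CPM, above the level in pericyte-like cells. Thinned to 1000 UMIs, it was found in 2.22% (1.07 to 4.05) and 5.45% (3.92 to 7.35) of pericyte-like and 1.47% (1.07 to 1.97) and 4.44% (3.76 to 5.20) of *Epcam* cells, with overlapping intervals, and the part of free RNA in the pericyte-like ratio was not tested. The receptor *Igf1r* stood at 30.9 and 62.8 CPM, for a log2 ratio of 1.02 (0.49 to 1.59), or 0.88 thinned to 1000 UMIs. *Igf1* and *Igf1r*, the 2 past 2-fold, passed the filter through the *Gli1 HHIPCKO* library alone, where each was higher. The binding protein *Igfbp7* was the most abundant of the list, at 1017 and 858 CPM. Of 21 TGF-beta and BMP genes 13 passed, none past 2-fold, with a median of 0.14, and *Fst*, given below, was not on this list. The co-receptors *Tgfbr3* at 163 and 272 CPM and *Eng* at 594 and 682 CPM were the genes named here, and *Bmp4*, a ligand, stood at 91.9 and 134 CPM. *Fst*, follistatin, which binds activins and BMPs, stood at 93.5 and 198 CPM, for a log2 ratio of 1.08 (0.78 to 1.40), or 0.99 without member cells that held a *Pdgfra*, *Pecam1*, *Cdh5* or *Sftpd* UMI, and in *Pdgfra* cells at 7.79 and 5.54 CPM.

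Immediate early genes were mixed. Of 18 genes 11 passed, 1 was past 2-fold higher (0.691% over all genes) and 2 lower (0.312%), and the median was 0.26, or -0.04 with 2 of 9 markers required. *Fos* stood at 181 and 364 CPM in pericyte-like cells, for a log2 ratio of 1.00 (0.79 to 1.23). It was 0.37 with 2 of 9 markers required and 2.02 after subtraction of the AT2 marker background. *Egr1* stood at 124 and 195 CPM, with a log2 ratio of 0.65 that was -0.01 with 2 markers required. *Klf2*, a flow-responsive transcription factor, was lower at 264 CPM in the control and 98.8 CPM in the *Gli1 HHIPCKO* library, for a log2 ratio of -1.42 (-1.68 to -1.15). It was found in 35.0% and 16.3% of pericyte-like cells, in 18.9% and 7.49% thinned, and in 3.68% and 5.18% of thinned *Epcam* cells. In *Pdgfra* cells the share was also lower, at 36.4% and 15.4%, or 15.7% and 6.56% thinned. *Ier3* stood at 156 and 66.9 CPM, for a log2 ratio of -1.22 (-1.56 to -0.89), or -0.52 without the *Acta2* and *Pln* gate, and its share of cells was 11.0% and 11.3%. Of 17 genes of the IL-6 family and chemokines 5 passed, none past 2-fold, with a median of 0.31. *Cebpd*, a transcription factor of that response, stood at 496 and 978 CPM, for a log2 ratio of 0.98 (0.85 to 1.11). Of 16 genes for MHC class I and interferon 7 passed, none past 2-fold, with a median of 0.18, or 0.57 without the member cells with a *Pdgfra*, *Pecam1*, *Cdh5* or *Sftpd* UMI.

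Among the autosomal genes that passed the filter, the lowest ratios began with *Mest* (ENSMUSG00000051855, chr6:30723547-30748465), an imprinted gene of early growth. It stood at 242 CPM in the control and 74.1 CPM in the *Gli1 HHIPCKO* library, for a log2 ratio of -1.71 (-2.01 to -1.42). Cells with a *Mest* UMI were 30.7% and 11.6% of pericyte-like cells, 18.0% and 6.13% thinned, and 0.501% and 0.154% of thinned *Epcam* cells. In *Pdgfra* cells *Mest* stood at 8.57 and 10.4 CPM, below its level in pericyte-like cells. *Alad*, an enzyme of haem synthesis, stood at 179 and 58.7 CPM, for a log2 ratio of -1.61 (-1.95 to -1.28). *Rrad*, a GTPase that inhibits calcium channels, stood at 164 and 73.6 CPM, for a log2 ratio of -1.16 (-1.48 to -0.84). *Hcn2*, a pacemaker channel, stood at 61.0 and 26.2 CPM, with a log2 ratio of -1.22, or -0.71 thinned. It passed the filter through the control library alone, where it was higher. *Tnxb*, tenascin X, stood at 218 and 100.4 CPM, with a log2 ratio of -1.12, or -0.79 without the *Acta2* and *Pln* gate. *Mustn1*, a muscle gene, stood at 473 and 223 CPM, and at 2899 and 1149 CPM in *Pdgfra* cells. Its log2 ratio was -1.09, or -0.65 without member cells that held a *Pdgfra*, *Pecam1*, *Cdh5* or *Sftpd* UMI. *Clec2d*, a lectin-like ligand, was the most abundant of the 12 lowest among genes higher in pericyte-like than in other passing cells, at 743 and 389.6 CPM, for a log2 ratio of -0.93 (-1.07 to -0.79). *Ccnd2*, cyclin D2, stood at 98.4 and 50.4 CPM, and *Cpa1*, a carboxypeptidase, at 107 and 54.5 CPM. The other genes of these ranks, *Pelo*, *Dnajc24*, *Prr12*, *Rnf122*, *Eogt*, *Iffo2*, *Pilrb1*, *Kcp* and *Mex3b*, had log2 ratios from -1.12 (*Pelo*, -0.36 when thinned) to -0.74 (*Eogt*), and the X-linked *C430049B03Rik* was at -1.02.

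On the higher side, *Hist1h1c*, a linker histone, stood at 24.4 and 71.0 CPM, for a log2 ratio of 1.54 (0.96 to 2.16), or 0.77 thinned to 1000 UMIs. It passed the filter through the *Gli1 HHIPCKO* library alone, where it was higher. *Hist1h4d*, a core histone, had a log2 ratio of 1.42, or 0.73 thinned. *Schip1*, a scaffold protein, stood at 82.1 and 188 CPM, for a log2 ratio of 1.19 (0.87 to 1.53). *Spop*, an adaptor of a ubiquitin ligase, stood at 56.9 and 133 CPM, and at a log2 ratio of 0.99 without the *Acta2* and *Pln* gate. *Mettl21e*, a lysine methyltransferase of muscle, stood at 66.7 and 147 CPM, and at 0.93 when thinned. The rest of the 15 highest and of the 12 highest among genes enriched in pericyte-like cells, *Gm14964*, *9530026P05Rik*, *Dcbld1*, *Otulinl* and *Wfdc6a*, had log2 ratios from 0.97 (*Wfdc6a*) to 1.26 (*Gm14964*), and *Dcbld1* was at 0.69 when thinned.

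RNA of other cell types was present in pericyte-like cells, and its part in the results above was not tested. AT2 markers, 8 of 8 detected, summed to 26895 and 22125 CPM, with *Sftpc* the most abundant, and the sums were 17.2% and 15.8% of the level over all cells of each library. Red cell markers, 5 of 5 detected, summed to 8635 and 14126 CPM, led by *Hbb-bs*, and these were 36.6% and 58.1% of the level over all cells. Most of this lay in few cells. Over 5% of UMIs from AT2 markers or from red cell markers were found in 23 control and 40 *Gli1 HHIPCKO* member cells, with median depths of 6381 and 5874 UMIs. In the remaining 485 and 780 member cells, AT2 markers summed to 3736 and 2607 CPM and red cell markers to 646 and 615 CPM. Without those cells, an alternative chosen after seeing the data, 39 genes were higher and 15 lower past 2-fold, of which 30 and 11 were among the 31 and 14.

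Fibroblast markers, 12 of 12 detected, summed to 4953 and 3661 CPM, led by *Col1a1*, which made up most of the sum in the control, while *Npnt* stood higher at 686 and 815 CPM. Smooth muscle markers summed to 3026 and 2438 CPM over 12 genes, led by *Myl9*, with *Map3k7cl* at 0 in the control. Endothelial markers, 10 of 10 detected, summed to 297 and 280.0 CPM, led by *Tmem100*, while *Pecam1* was found in 1.18% of control and 0.244% of *Gli1 HHIPCKO* member cells. Immune markers summed to 107 and 19.0 CPM over 6 genes, led by *Tyrobp* in the control and *Lcp1* in the *Gli1 HHIPCKO* library, where *Cd53* was at 0. Mesothelial markers, 4 of 4 detected, summed to 88.7 and 110.1 CPM, led by *Msln*.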

How the data were processed

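The deposited counts are raw UMI counts per gene and cell for the cells that CellRanger called, aligned to mm10 by the authors, before their own filters. GENCODE vM21 holds 32158 of the 32285 genes. Members and lists were chosen with earlier results of these data known. UMIs were added up over member cells and divided by all UMIs of the class. Genes of the rule were left out of the counts of genes past 2-fold. Named are the rule genes, a choice of the list genes made with their values known, the 15 highest and 15 lowest ratios, the 12 highest and 12 lowest among genes at least 2 times as high as in all other passing cells, and the 25 genes furthest above other stromal cells, by the lower ratio of the libraries. Ribosomal protein genes are given as a group. Alternatives changed the rule, the scaling, the cells and the depth. Those without cells of over 5% AT2 or red cell marker UMIs were chosen after seeing the data. The background in the subtraction is the share of the AT2 marker level found in member cells times each gene's level over the library. The work used matplotlib 3.10.9, pandas 2.3.3, scipy 1.17.1 and numpy 2.4.6 in Python 3.11.15. The clusters and tests of the authors were not used here.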

Additional observations from a re-analysis of the deposited data

Results flagged for a closer look

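The genes of the lists and ranks were screened, not all genes past 2-fold. In 4 instances such a gene, past 2-fold in pericyte-like cells, had the opposite sign in another class. The other class was *Pdgfra* cells or marker-positive cells outside the *Acta2* and *Pln* gate, and both counting intervals were clear of 0. The log2 ratio of *Lamc3* was 1.44 in pericyte-like and -0.41 in *Pdgfra* cells, a gap of 1.85. That of *Angpt2* was 1.42 in pericyte-like and -0.64 in *Pdgfra* cells, a gap of 2.06. Without the *Acta2* and *Pln* gate the pericyte-like ratio of *Angpt2* was 0.94, and that of *Ier3* was -0.52. Under the main rule *Ier3* was at -1.22 in pericyte-like and 0.71 in *Pdgfra* cells, a gap of -1.93. It was at 0.67 in the marker-positive cells outside the *Acta2* and *Pln* gate, a gap of -1.89. With 1 mouse per group, each difference was not tested.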

How the results depend on the processing

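The log2 ratio of the share of pericyte-like cells ran from 0.45 to 0.59 over its alternatives. For 235 single genes, 3017 of 3276 alternative values stayed within the counting interval, 259 moved, and 0 genes past 2-fold took the other sign. In 53 genes within 2-fold, 125 alternative values had the other sign. Of the gene counts past 2-fold, 28 of 34 were within 1.5 times. They were 89 higher and 42 lower with genes found in 5% of cells, 108 and 55 with the UMI minimum alone, and 194 and 99 at 1.5-fold, since each admits more genes. Thinned to 1000 UMIs, 24 were higher and 10 lower, of which 12 and 6 were among the 31 and 14. Of 224 list medians 215 stayed within 0.2. The others were interstitial matrix -0.19, immediate early -0.04, glucocorticoid 0.51 and IGF -0.19 with 2 of 9 markers required, IGF -0.20 with 4, interstitial matrix -0.20 and MHC 0.57 without cells with a *Pdgfra*, *Pecam1*, *Cdh5* or *Sftpd* UMI, and angiogenic 0.11 and clock 0.30 after thinning, and the cause was not tested.

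Thinning lowers the UMIs of each kept cell and leaves out cells of lower depth, so a thinned share reflects both. At 2000 UMIs, 257 control and 420 *Gli1 HHIPCKO* member cells were left out. The *Hhip* shares there, 9.56% and 5.75%, were above the 8.46% and 4.88% as sequenced. At 1000 UMIs the shares were 1.56% and 7.90% for *Cdkn1a*, 1.11% and 6.40% for *Fkbp5*, 3.33% and 7.77% for *Angpt2*, 5.56% and 12.1% for *Lamc3* and 29.6% and 44.6% for *Gja4* in the control and the *Gli1 HHIPCKO* library. At 2000 UMIs they were 3.19% and 14.0% for *Cdkn1a*, 2.39% and 10.8% for *Fkbp5* and 4.78% and 13.8% for *Angpt2*. *Lamc3* was then at 8.37% and 21.8%, and *Gja4* at 41.8% and 54.0%. Depth limits genes of few UMIs, and a single mouse per group limits every comparison.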
